A study of Rattus norvegicus with 21 samples.

Results

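The Krüppel-like factors are transcription factors that bind GC-rich and CACCC-type DNA through zinc fingers at the end of the protein. Rat liver was profiled here for 10 genes of this family (Klf2, Klf3, Klf4, Klf5, Klf6, Klf9, Klf10, Klf13, Klf15 and Klf16), out of 14217 genes with a probe set of their own on the array. The genes were taken by symbol from a list, and 25 probe sets name 1 of them alone. The list was drawn up because Klf15 and Klf16 were higher than vehicle at every dose. The comparison of each dose with vehicle is therefore a description for these genes and carries no p-value, and only differences among the dosed groups were tested for them.

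The organophosphate flame retardant tert-butylphenyl diphenyl phosphate (BPDP), dissolved in corn oil, was gavaged once a day for 4 days to male rats of the Harlan Sprague-Dawley strain. The left liver lobe was taken on day 5. There were 6 arrays from rats given corn oil alone and 3 arrays each at 64.6, 129.2, 258.1, 516.2 and 1032.5 mg/kg. The labels state 5 vehicle rats, so the 6 vehicle arrays may not all be separate animals, and p-values measure the spread between arrays, which may in part be technical. All values are RMA signals on the log2 scale.

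In rodent liver Klf15 promotes amino acid breakdown and glucose production during fasting, and Klf9 and Klf15 are both induced by glucocorticoids and vary over the day. Klf10 is an early gene of transforming growth factor beta signalling and also varies over the day. Klf2 and Klf4 are best known from endothelium, Klf5 from epithelia, Klf6 from the early response to liver injury, Klf13 from lymphocytes, and Klf3 and Klf16 act mainly as repressors.

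Promoters of 3 members are shown because their genes took different courses: Klf15 and Klf9 were higher in dosed livers, whereas Klf6 was not separated from vehicle at any dose. Each runs from 250 bases before the start site to 50 after it, 5′ to 3′ (RefSeq, GRCr8), with any E-box, the sequence bound by clock and other basic helix-loop-helix factors, in capitals.
Klf15, chr4:124522765-124523064 (+): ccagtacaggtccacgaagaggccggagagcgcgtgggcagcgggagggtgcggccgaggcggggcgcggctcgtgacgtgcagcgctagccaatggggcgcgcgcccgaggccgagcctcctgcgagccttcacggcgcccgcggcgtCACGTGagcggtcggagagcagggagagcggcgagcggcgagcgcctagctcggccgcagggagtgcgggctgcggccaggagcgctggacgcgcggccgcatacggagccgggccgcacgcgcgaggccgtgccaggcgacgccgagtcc
Klf9, chr1:230126396-230126695 (+): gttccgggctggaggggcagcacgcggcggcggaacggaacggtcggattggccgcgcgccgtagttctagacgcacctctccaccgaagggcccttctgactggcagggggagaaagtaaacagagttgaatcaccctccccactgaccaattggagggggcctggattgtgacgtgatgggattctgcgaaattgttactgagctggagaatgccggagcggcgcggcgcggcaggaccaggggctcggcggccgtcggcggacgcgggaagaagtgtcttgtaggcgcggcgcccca
Klf6, chr17:69458429-69458728 (-): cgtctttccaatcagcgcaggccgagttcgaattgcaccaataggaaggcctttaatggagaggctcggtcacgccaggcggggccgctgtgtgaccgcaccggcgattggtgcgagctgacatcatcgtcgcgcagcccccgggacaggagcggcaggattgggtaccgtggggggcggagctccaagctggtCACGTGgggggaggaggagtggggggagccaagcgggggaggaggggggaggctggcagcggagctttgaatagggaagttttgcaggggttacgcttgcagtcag

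The E-box (CACGTG) was found at position -101 of the Klf15 promoter and at -56 of the Klf6 promoter, counted from the start site to its first base, and not in this window of Klf9. On both strands, 6.42% of 33469 rat promoters of the same length hold it. Promoter entries existed for 6 members, and the E-box was in neither Klf3, Klf4 nor Klf5. The D-box (TTATGNAA, bound by Dbp, Tef and Hlf; 3.66% of all promoters) was in none of the 6. The glucocorticoid receptor core (ACANNNTGT; 6.86%) was in Klf3 alone, at -131. The CACCC box (CACCC; 54.9%) occurred at -204 in Klf15, at -117 in Klf9, 4 times in Klf3 and 2 times in Klf5. The GC box (GGGCGG; 33.1%) occurred in Klf3 and Klf6, and the TATA box (TATAAA; 14.2%) 2 times in Klf4. The Klf15 promoter was 77.3% G and C, against 65.3% in Klf9, 64.7% in Klf6 and a median of 51.7% over all promoters.

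Klf15, the family's regulator of amino acid catabolism, was the member furthest above vehicle at 4 of 5 doses, and level with Klf16 at 516.2 mg/kg. The 6 vehicle arrays lay between 8.84 and 9.48, with a median of 9.12. The arrays read 10.20, 10.27 and 10.39 at 64.6 mg/kg, 10.29, 9.93 and 10.29 at 129.2 mg/kg, and 10.71, 10.30 and 10.60 at 258.1 mg/kg. They read 10.14, 9.80 and 10.22 at 516.2 mg/kg and 10.60, 10.48 and 9.96 at 1032.5 mg/kg. All 15 dosed arrays therefore lay above all 6 vehicle arrays, as they did in 0.528% of all genes; the gene was chosen on this comparison. Over the doses in rising order Klf15 was higher than vehicle by 1.16, 1.04, 1.41, 0.93 and 1.22 on the log2 scale, each ± 0.16 (SE), which is 2.23-, 2.06-, 2.65-, 1.90- and 2.33-fold.

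Klf16, a GC-box-binding relative of Sp1, was also above vehicle in every dosed array. Its vehicle arrays lay between 8.01 and 8.47, with a median of 8.07. It read 8.56, 9.12 and 8.94 at 64.6 mg/kg, 8.95, 8.87 and 8.93 at 129.2 mg/kg, and 9.10, 8.99 and 9.43 at 258.1 mg/kg. At 516.2 mg/kg it read 9.15, 9.27 and 8.91, and at 1032.5 mg/kg 9.14, 9.35 and 8.97. The lowest dosed array, at 64.6 mg/kg, was 8.56, just above the highest vehicle array. In rising dose order Klf16 was higher by 0.70, 0.74, 0.99, 0.93 and 0.97, each ± 0.14 (SE).

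Klf9, a glucocorticoid- and thyroid-hormone-inducible member, was higher by 0.66, 0.87, 0.99, 0.89 and 0.84, each ± 0.18 (SE). Its vehicle arrays spread from 10.45 to 11.24, with a median of 10.78. It read 11.17, 11.84 and 11.50 at 64.6 mg/kg, 12, 11.34 and 11.78 at 129.2 mg/kg, and 11.84, 11.78 and 11.87 at 258.1 mg/kg. The 516.2 mg/kg arrays read 12.12, 11.54 and 11.52, and the 1032.5 mg/kg arrays 11.73, 11.68 and 11.63. One array at 64.6 mg/kg overlapped the vehicle arrays, and from 129.2 mg/kg on none did. The share of all genes without overlap at a dose is not given here, and nothing is read from it for Klf9.

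**Figure D1:**
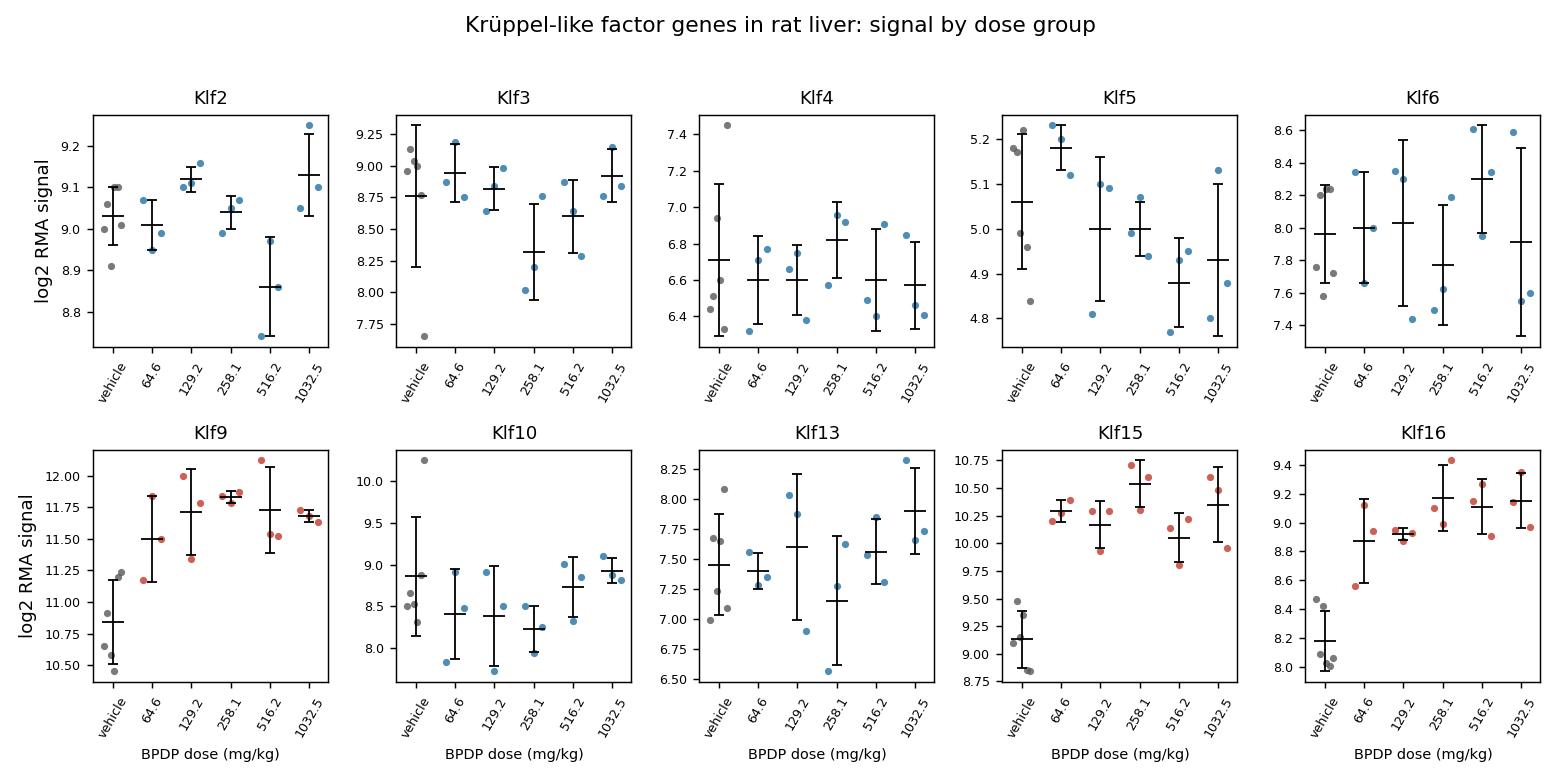
Log2 RMA signal (vertical axes, each gene on its own scale) of 1 probe set for each of the 10 genes, by dose group in mg/kg. Points are arrays, the dash is the group mean and the bars are ± 1 SD (n = 6 vehicle, n = 3 per dose). For Klf15 and Klf16 all 15 dosed arrays lie above the vehicle arrays, while Klf3 and Klf10 have 1 vehicle array, at 7.65 and 10.25, away from the other 5.

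The other 7 members passed no threshold against vehicle in the fit of all arrays with equal weights. At 1032.5 mg/kg their differences from vehicle ran from -0.14 to 0.45 with a median of 0.08, and the median of all genes was -0.01. Klf10 was lower than vehicle by 0.45, 0.48 and 0.63 at the 3 lower doses (SE 0.33), with 95% intervals that include 0. Its vehicle arrays read 8.50, 8.66, 8.53, 8.31, 8.88 and 10.25, and without the last, replicate 6, the same differences were -0.17, -0.20 and -0.35. The dosed arrays read 7.83 to 8.91 at 64.6, 7.72 to 8.91 at 129.2, 7.94 to 8.50 at 258.1, 8.32 to 9.01 at 516.2 and 8.82 to 9.11 at 1032.5 mg/kg. None exceeded replicate 6, but at every dose except 258.1 mg/kg some exceeded 8.88, the highest of the other 5 vehicle arrays. Without replicate 6 Klf10 differed by 0.15 at 516.2 and by 0.36 at 1032.5 mg/kg. Klf3, a repressor, differed by -0.43 at 258.1 mg/kg on its brightest probe set, where its arrays read 8.02, 8.20 and 8.76. Without vehicle replicate 6, which read 7.65 against 8.77 to 9.13 in the other 5, the difference was -0.66. The second Klf3 probe set differed there by -0.35, and by -0.53 without that array. The third differed by only -0.04, and by -0.06 without it, so the lower Klf3 signal depended on the probe set.

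Klf13 was the highest of the 7 at 1032.5 mg/kg, by 0.45 (95% interval -0.10 to 1), with arrays of 8.32, 7.66 and 7.73 against 6.99 to 8.08 in vehicle. Klf6 ranged from -0.19 to 0.34 over the doses, and its 3 arrays at 129.2 mg/kg, 8.35, 8.30 and 7.44, covered more than the whole vehicle range of 7.58 to 8.24. Klf4 had dosed arrays of 6.32 to 6.96 within a vehicle range of 6.33 to 7.45, apart from the lowest, and stayed between -0.14 and 0.11. Klf5 was dim, under the lower quartile of its array on 12 of 21 arrays, and stayed between -0.18 and 0.12.

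Klf2 depended on the probe set. The brightest one was within 0.17 of vehicle at every dose, and its 3 arrays at 129.2 mg/kg (9.10, 9.11 and 9.16) lay at or just above the highest vehicle array of 9.10. A second Klf2 probe set was lower than vehicle by 0.11, 0.35, 0.42, 0.58 and 0.45 over the doses. On this probe set 9 of 15 dosed arrays lay below all 6 vehicle arrays, a count given without the share over all genes. Vehicle replicate 6 read 9.11 on it against 8.19 to 8.78 in the other 5, and without it the differences were 0.02, -0.23, -0.30, -0.46 and -0.33. Klf2 is an endothelial gene of the flow response, and liver tissue mixes cell types: a lower signal from fewer cells of a type and from less RNA per cell cannot be told apart. At 516.2 mg/kg limma called 2 of 12 endothelial markers lower but no Klf2 probe set. In a fit with 1 probe set per gene, 525 of 14217 genes were called lower there. The markers' summed signal of 4198 to 5799 overlapped that of vehicle, 4623 to 7937. Their part in the Klf2 signal was not tested.

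Probe sets disagreed for Klf15 and Klf9 as well. The second Klf15 probe set was higher by 0.76, 0.63, 0.90, 0.14 and 0.64, and at 516.2 mg/kg its arrays of 6, 6.57 and 6.25 overlapped the vehicle range of 5.78 to 6.39. The third Klf15 probe set lay between -0.28 and 0.00. Of the other Klf9 probe sets, one was higher by 0.10 to 0.38 and the last, dim on 18 of 21 arrays, lay between -0.17 and 0.00. Klf16 has 1 probe set.

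**Figure D2:**
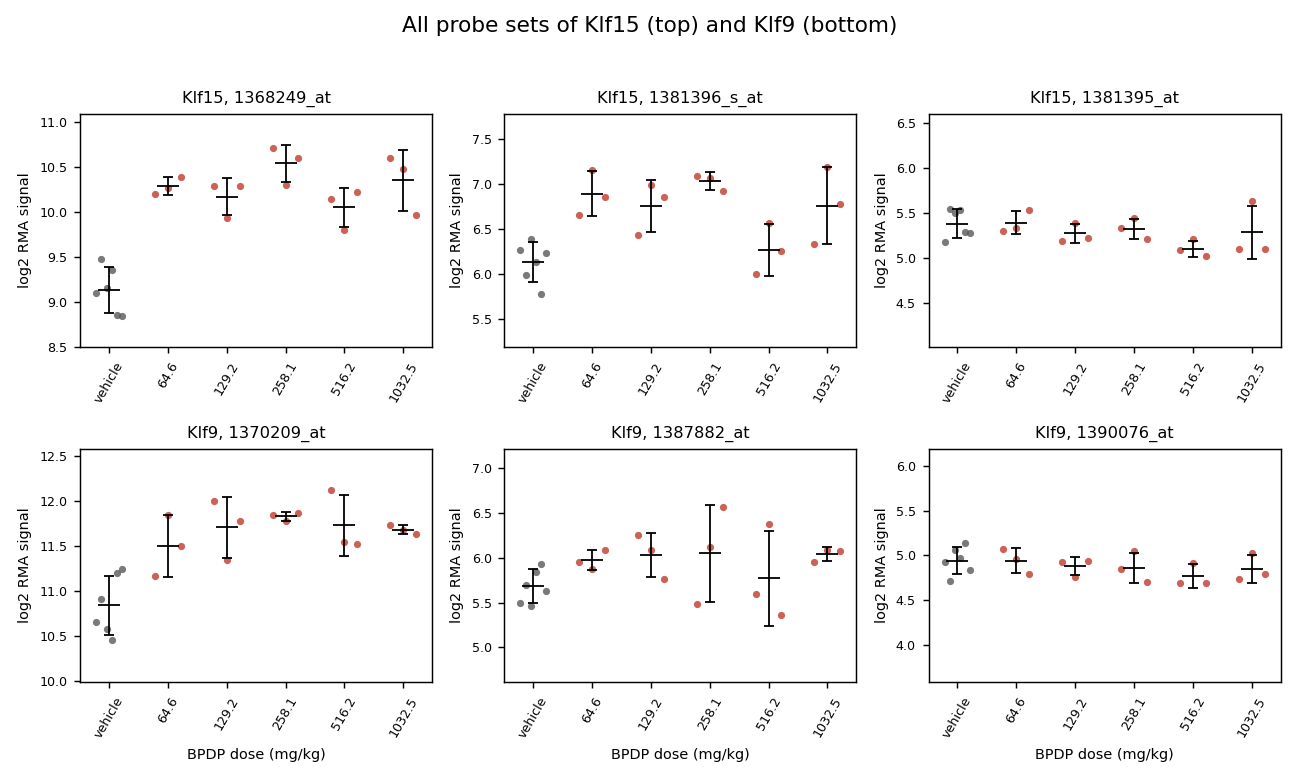
Log2 RMA signal of the 3 probe sets each of Klf15 (top) and Klf9 (bottom) by dose group in mg/kg, all axes spanning the same range. Points are arrays, the dash is the mean and bars are ± 1 SD (n = 6 vehicle, n = 3 per dose). Only the left-hand probe sets, the brightest, keep all dosed group means well above vehicle. At 516.2 mg/kg the second Klf15 probe set is 0.14 above vehicle.

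Under limma with a Benjamini-Hochberg threshold of 0.05 over all probe sets, 2 of 10 members were past it at 64.6 mg/kg (Klf15 and Klf16) and 3 of 10 at each higher dose (with Klf9), all higher. Of all genes 0.197%, 0.352%, 2.23%, 6.30% and 4.81% were past it and higher, in rising dose order. Since the family was chosen on this comparison, nothing is read from its counts. Klf16 dropped out at 64.6 mg/kg without vehicle replicate 4, 5 or 6 or without dosed replicate 2 or 3. At 129.2 mg/kg Klf9 dropped out without vehicle replicate 1, 2, 3 or 4, replicate 3 at 64.6 mg/kg, replicate 1 or 3 of its own dose, or any array at 258.1 or 1032.5 mg/kg. Klf16 dropped out there without any 1 array of that dose. Klf9 also dropped out at 516.2 mg/kg without replicate 1 of that dose, and Klf3 came in, lower, at 258.1 mg/kg without vehicle replicate 6. With array weights Klf10 came in, at -0.81, at 129.2 mg/kg. With its second probe set in place of the first, Klf15 dropped out at 64.6, 129.2 and 516.2 mg/kg. The same exchange took Klf9 out at every dose from 129.2 mg/kg on. With the mean of the probe sets Klf15 dropped out at 516.2 mg/kg, and Klf9 at 129.2 and 516.2 mg/kg.

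**Figure D3:**
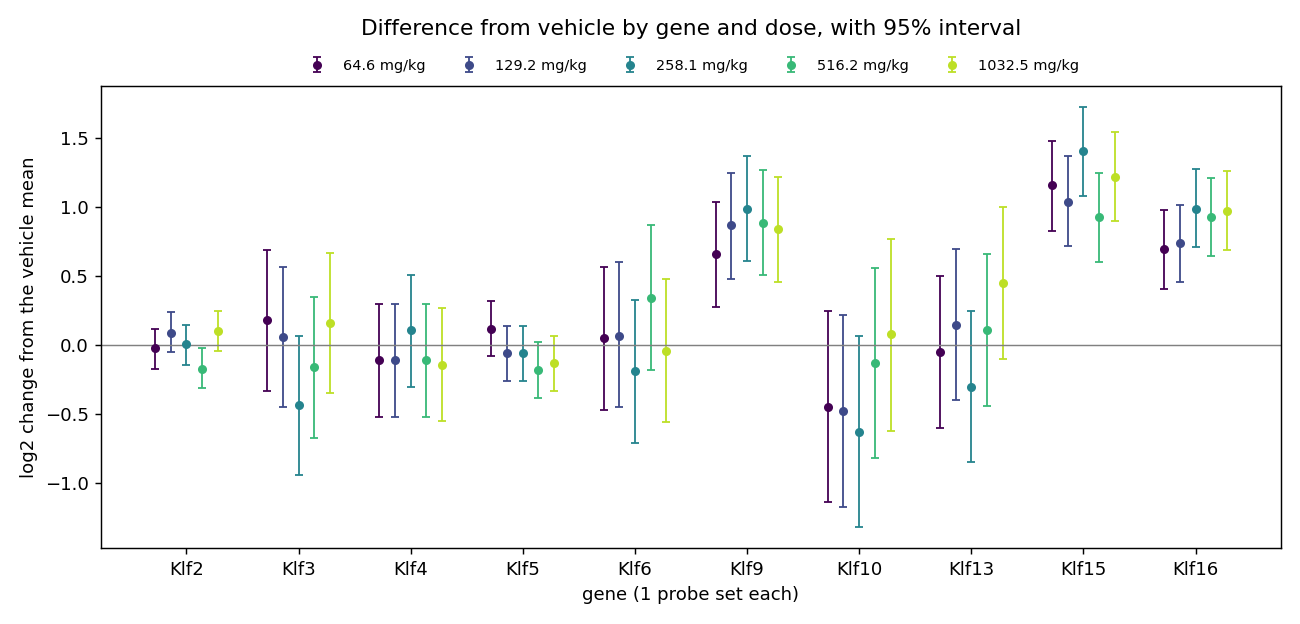
Difference of each dose from vehicle (log2, vertical axis) for 1 probe set of each of the 10 genes. Points are limma estimates and bars 95% intervals, coloured by dose. The intervals of Klf9, Klf15 and Klf16 lie above 0 at all 5 doses. Those of the other genes include 0 except Klf2 at 516.2 mg/kg (-0.31 to -0.02). The family was chosen on this comparison and the intervals are not adjusted for many genes, so they are a description and no test.

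Whether the members changed further between the lowest and the highest dose was tested between the dosed groups, where the vehicle level plays no part. The vehicle arrays still entered the estimate of spread, except for the slope over dose, which was fitted on the dosed arrays alone. None of the 10 passed in limma's moderated F over the dosed groups (lowest adjusted p = 0.296, Klf2), in 1032.5 against 64.6 mg/kg (lowest adjusted p = 0.326, Klf5) or in the slope per dose step (lowest adjusted p = 0.212, Klf5). Of all genes 1.56%, 2.17% and 3.41% passed these tests. At an unadjusted p under 0.05 there were 1, 1 and 3 members of 10. In a fit with 1 probe set per gene, 2066, 2304 and 2719 of 14217 genes were under that cut, so nothing is read from the members' counts. Klf15 differed by 0.06 between these doses (95% interval -0.31 to 0.44), Klf9 by 0.18 (-0.26 to 0.62) and Klf16 by 0.28 (-0.05 to 0.60). The slope per dose step was 0.00 for Klf15 (-0.09 to 0.09), 0.04 for Klf9 (-0.05 to 0.12), 0.07 for Klf16 (0.01 to 0.14) and 0.14 for Klf10 (0.00 to 0.28), of which the last was the steepest of the 10.

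**Figure D4:**
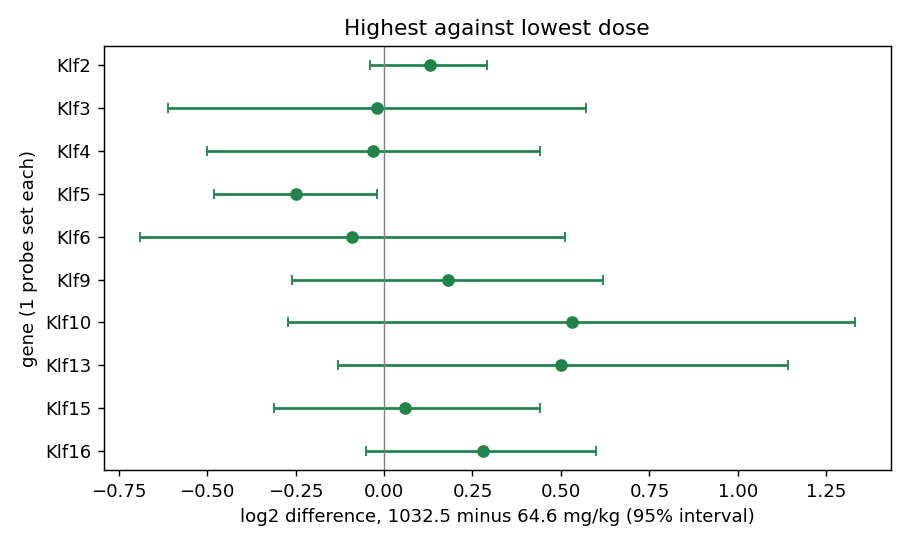
Log2 difference between 1032.5 and 64.6 mg/kg (horizontal axis) for each of the 10 genes, with the limma 95% interval. Only the interval of Klf5 (-0.48 to -0.02) leaves out 0, and its adjusted p is 0.326.

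The other Krüppel-like and Sp genes measured (Klf1, Klf7, Klf11, Klf12 and Sp1 to Sp4) gave 0 calls in 40 limma tests against vehicle. The lowest adjusted p was 0.0634, 3 tests had an unadjusted p under 0.05, and log2 differences ran from -0.52 to 0.32. Without replicate 2 at 516.2 mg/kg 2 were called lower there, Sp1 and Klf12, and without vehicle replicate 2 Sp1 was.

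Genes of pathways in which Klf15, Klf9 and Klf10 are known to act were read from fixed lists and tested against vehicle with limma. Among 17 genes of amino acid catabolism and the urea cycle, 3 rose and 3 fell at 1032.5 mg/kg, and the list's median difference was -0.03 against -0.01 for all genes. Without replicate 2 or 3 of that dose, 2 rose and 1 fell, since the calls of Otc, Asl and Prodh were lost, and without replicate 1 or 2 at 516.2 mg/kg 5 fell. Oat, ornithine aminotransferase, fell from 11.04 ± 0.35 (SD, n = 6) to 8.93 ± 0.11 (n = 3), a 4.32-fold fall (limma adjusted p = 3.16e-07). Gpt, alanine aminotransferase, rose by 0.81 ± 0.15 (SE; adjusted p = 0.00195) and Arg1, arginase of the urea cycle, by 0.50 ± 0.08 (adjusted p = 3.27e-04). Oat had fallen at 64.6 mg/kg too, by 0.92. That call was lost without vehicle replicate 5 or dosed replicate 1 or 2, or with only the groups compared (limma adjusted p up to 0.177). Between 1032.5 and 64.6 mg/kg Oat differed by -1.19 (limma adjusted p = 0.00307). No gene of this list was called by limma at 129.2 mg/kg, where 8 had an unadjusted p under 0.05; without vehicle replicate 4, 1 fell.

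Of 5 genes of glucose output, none was called by limma at 1032.5 mg/kg, where 2 had an unadjusted p under 0.05. There 1 fell without replicate 1 of that dose or replicate 1 at 516.2 mg/kg. Pck1, the rate-limiting enzyme of gluconeogenesis, fell by 0.21 per dose step among the dosed arrays (limma adjusted p = 0.0458). It lay 0.35 above vehicle at 64.6 mg/kg (adjusted p = 0.667) and differed by -0.34 at 1032.5 mg/kg (adjusted p = 0.361). The slope call was lost when any 1 of 10 arrays was left out, among them every array at 129.2 and 1032.5 mg/kg (adjusted p up to 0.134). Slc37a4, the glucose-6-phosphate transporter, rose by 0.35 at 258.1 mg/kg (adjusted p = 0.0495) and by 0.33 at 516.2 mg/kg (adjusted p = 0.0392), and, like Pck1, is named here after its values were seen. These calls were lost under 19 and 9 of the alternatives, with adjusted p up to 0.229, among them the omission of any 1 array of the dose itself or of vehicle replicate 1, 2, 3 or 4.

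Among 12 glucocorticoid-responsive genes, 3 rose and none fell at 1032.5 mg/kg, and the list's median was 0.36. Per1, 1 of these 3, is also on the clock list below and is counted in both. Mt2A, a metallothionein, rose by 1.96 ± 0.46 (SE; limma adjusted p = 0.0120), from vehicle arrays that spread from 10.43 to 14.02. Ddit4, a stress-induced inhibitor of mTOR, rose by 1.38 ± 0.33 (adjusted p = 0.0125) and Per1 by 0.53 ± 0.13 (adjusted p = 0.0121). Each call was lost without replicate 1 of that dose, and those of Mt2A and Per1 also without replicate 2 (adjusted p up to 0.131). That of Mt2A was also lost with only the groups compared in the fit (limma adjusted p = 0.0935). Those of Ddit4 (limma adjusted p = 0.137) and Per1 were also lost with a block for replicate number in the fit. At 64.6 and 129.2 mg/kg limma called 0 of 12, although 5 had an unadjusted p under 0.05 at each and the list's medians were 0.25 and 0.38. Mt2A differed there by 1.52 (adjusted p = 0.252) and 1.80 (adjusted p = 0.132). It passed at both doses without vehicle replicate 6, and Per1 did so without replicate 3 at 258.1 mg/kg. The count at 1032.5 mg/kg was 0 without replicate 1 and 1 without replicate 2 of that dose, and without vehicle replicate 4 it was 4, with 1 gene lower.

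The clock list moved at every dose. Of 17 genes, 6, 5, 9, 7 and 8 rose and 3, 4, 4, 4 and 4 fell in rising dose order. Without replicate 3 at 258.1 mg/kg the 9 that rose at that dose became 5, as the calls of Per1, Cry2, Hlf and Bhlhe41 were lost. With any other array left out, 6 or more rose there. Dbp, a clock output activator, rose from 5.78 ± 0.24 (SD over 6 arrays) in vehicle to 10.21 ± 0.23 at the lowest dose and 10.57 ± 0.32 at 1032.5 mg/kg (SD over 3 arrays each), 27.6-fold at the latter (limma adjusted p = 2.11e-10). Bmal1, the core activator, fell by 1.93 at 64.6 mg/kg (adjusted p = 6.42e-04) and fell by 2.75 at 1032.5 mg/kg (adjusted p = 9.63e-07). Npas2, its partner, fell by 1.51 at 64.6 mg/kg (limma adjusted p = 0.0167) and by 3.50 at 1032.5 mg/kg (limma adjusted p = 1.84e-07). At 64.6 mg/kg the Npas2 call was lost without replicate 1 or 2 of that dose or with a block for replicate number. The clock shifts stood beside those of Klf9, Klf15 and Klf16 from the lowest dose on. The hour at which each group was sampled is not given in the sources used here, and its part in the result was not tested.

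Of 17 immediate early genes, 3 fell and none rose at 1032.5 mg/kg. Egr1 fell by 2.82 ± 0.51 (SE; limma adjusted p = 0.00147), Ier2 fell by 0.94 ± 0.19 (adjusted p = 0.00330) and Ier5 fell by 0.75 ± 0.16 (adjusted p = 0.00624). Klf6 and Klf10, which respond early to stimuli too, differed by -0.04 and 0.08 at that dose, and Klf10 by 0.36 without vehicle replicate 6. Of 11 genes of transforming growth factor beta signalling, which induces Klf10, 1 was called: Smad2, a signal transducer, rose by 0.39 ± 0.11 (limma adjusted p = 0.0355). That call was lost without vehicle replicate 2, 4 or 5 or any 1 array of that dose. It was also lost with a block for replicate number (limma adjusted p up to 0.192).

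The genes whose signal was most like that of Klf15 over all 21 arrays were Hsd17b2 (r = 0.94, rho = 0.90), Mia3 (0.92, 0.86), Dbp (0.91, 0.70), Ugp2 (0.90, 0.86) and Enpp2 (0.89, 0.79). For Klf16 they were Tef (r = 0.92, rho = 0.90), Dbp (0.92, 0.91), Gclm (0.92, 0.87), Pde3b (0.91, 0.88) and Usp2 (0.91, 0.88). In both genes the dosed arrays lay above the vehicle arrays, in Klf16 by a small gap (8.56 against 8.47). These values therefore mostly carry the difference between vehicle and dosed arrays. Within the 15 dosed arrays the highest were Nfkbiz (r = 0.79, rho = 0.73), Pax6 (0.76, 0.71), Sfr1 (0.76, 0.67), Adhfe1 (0.75, 0.87) and Apoc1 (0.74, 0.64) for Klf15. For Klf16 they were C9h2orf69 (r = 0.84, rho = 0.60), Ubxn2a (0.83, 0.68), Ccdc117 (0.82, 0.79), Colgalt2 (0.81, 0.87) and Nat8 (0.80, 0.75). Without the 2 arrays farthest from the median, r fell to 0.55 for C9h2orf69 and to 0.59 for Ubxn2a. Among the dosed arrays Klf15 and Klf16 themselves had r = 0.30, Klf9 and Klf16 0.56, and Klf9 and Klf15 0.36. All such pairs share arrays and normalization, and n = 15 sets their precision. The genes named for the dosed arrays were picked for the highest r among all genes measured. What r the highest of so many unrelated genes would reach at n = 15 was not tested. No shared regulation is therefore read from those genes.

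Cell type markers were read beside the members. At 1032.5 mg/kg 2 of 9 hepatocyte markers fell, with a summed signal of 231917 to 238301 against 245169 to 256739 in vehicle. Of 12 endothelial markers 1 fell (5184 to 5920 against 4623 to 7937), of 10 Kupffer cell markers 2 fell (7731 to 9788 against 10592 to 15302), and of 12 stellate cell markers 4 fell (3272 to 3875 against 4273 to 6438). Of 8 cholangiocyte markers 1 rose (2112 to 2349 against 1736 to 1964). Of 11 lymphocyte markers 2 fell (744 to 778 against 851 to 1046), and of 4 red cell markers 2 fell (1605 to 3700 against 5474 to 14100). In a fit with 1 probe set per gene, 806 of 14217 genes were called higher and 715 lower at 1032.5 mg/kg. The markers' part in the members' differences was not tested. Arrays correlated pairwise at 0.984 to 0.995. Vehicle replicate 6 stood lowest in its group, with a mean r of 0.989 against 0.993, and without it Klf15 was higher at the 5 doses by 1.10, 0.98, 1.35, 0.87 and 1.16 and Klf16 by 0.67, 0.71, 0.97, 0.91 and 0.95.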

How the data were processed

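Rat liver RNA was measured on 21 1-colour Affymetrix-type arrays. The authors deposited 1 log2 signal for each probe set and array, made with RMA per the submitters' processing notes; software and settings are not given in the sources used. They were used as deposited. Arrays have no read depth, and their number limits precision.

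After removal of 57 control probe sets, 31042 remained, 20826 naming 1 gene, 436 several and 9780 none; 20758 symbols were updated through Entrez identifiers and 2 through accessions (RefSeq, GRCr8). The probe set with the highest mean represents a gene. limma 3.58.1 in R 4.3.3 fitted a coefficient per dose group over all arrays, and the slope over the 15 dosed arrays. P-values are two-sided, with Benjamini-Hochberg adjustment across the 31042 probe sets of a comparison, with a threshold of 0.05. The fits were tested on simulated data.

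The members and gene lists were chosen with earlier results of these data known. All members are named, with up to 3 called genes per list with the largest difference at 1032.5 mg/kg and the 5 genes with the highest Pearson r to Klf15 and Klf16; other named genes were chosen after their values were seen. Deviations of same-numbered arrays of different groups had a median r of 0.0054, and the main fit uses no pairing. The alternatives were other scalings, filters, variance models, array weights, a replicate block, an RNA integrity covariate, other probe sets, a linear dose and each array left out.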

Additional observations from a re-analysis of the deposited data

Results flagged for a closer look

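Chance alone would set 1 vehicle array apart in about 1 in 20 probe sets by the gap test used here, Dixon's. Of the 25 Krüppel-like factor probe sets 3 had such an array, and in all 3 it was vehicle replicate 6. For Klf3 it read 7.65 on 1 probe set, where the nearest vehicle array read 8.77 and the gap was 0.755 of the range. On a second Klf3 probe set it read 7.10, with 7.97 nearest and a gap of 0.642. For Klf10 it was the highest at 10.25, with 8.88 nearest and a gap of 0.703. The 2 Klf3 probe sets report on the same RNA and are not independent. How many of all probe sets hold such an array was not tested. Over all probe sets vehicle replicate 6 had a mean r of 0.989 with its group, against 0.993 for the others. Nothing is therefore read from the count as a trait of these genes.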

How the results depend on the processing

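Main counts of probe sets past the threshold were 77, 108, 731, 1868 and 1908 against vehicle in rising dose order, 317 among dosed groups, 458 for 1032.5 against 64.6 mg/kg and 708 for the slope. With 1 array left out they ranged from 42 to 90, 34 to 112, 244 to 1048, 631 to 2499, 1136 to 2052, 180 to 441, 213 to 545 and 370 to 760. Array weights gave 126 at 64.6, 2129 at 129.2, 1207 at 258.1 and 2884 at 1032.5 mg/kg, 2442 among dosed groups and 820 for 1032.5 against 64.6 mg/kg. Fitting only the groups compared gave 474 at 258.1 mg/kg and 284 for 1032.5 against 64.6 mg/kg, and a linear dose gave 403 for the slope. Subtracting array medians turned 1247 higher and 621 lower probe sets at 516.2 mg/kg into 1645 and 421, and 454 and 254 for the slope into 510 and 172. Where a cause is not given by the alternative's own construction, the cause was not tested. Same-numbered deviations had a median r of 0.0054 (-0.28 to 0.394), against -0.00788 (-0.441 to 0.302) for other numbers. Of 18 arrays, 10 correlated best with their own number, more than an even spread over the numbers 1 to 3 would give. Whether same-numbered arrays share more than the number was not tested. The replicate block gave 42 probe sets and 1 member at 64.6 mg/kg, 47 and 1 at 129.2 mg/kg. Called members were 1 at 64.6 mg/kg with only the groups compared, 1 at 64.6, 129.2 and 516.2 mg/kg with another probe set, and 1 at 516.2 mg/kg with the mean of probe sets. They were 4 at 129.2 mg/kg with array weights, which added Klf10 (-0.81), and 4 at 258.1 mg/kg with the replicate block, which added Klf3 (-0.72); with 1 array left out they ranged from 1 to 2, 1 to 3, 3 to 4, 2 to 3 and 3 to 3 over the doses, and were 0 in the dosed tests under all alternatives run. Of 85 calls of list genes 50 held under every alternative run and 34 were lost when some array was left out. The following dosed differences changed sign and were called in no setting. For 1032.5 against 64.6 mg/kg, Klf2 was -0.14 with the mean of probe sets and -0.34 with another; Klf3 was 0.01 with array medians subtracted, 0.02 with array weights, 0.05 with the mean of probe sets and -0.14 to 0.11 with an array left out. Klf4 was 0.00 with array medians subtracted, 0.02 with the RNA integrity covariate and -0.17 to 0.06 with an array left out; Klf6 was 0.02 with another probe set and -0.43 to 0.09 with an array left out. Klf15 was -0.06 with the mean of probe sets, -0.13 with another and -0.06 to 0.26 with an array left out. For the slope, Klf9 was -0.00 with the mean of probe sets and -0.01 with another; Klf15 was -0.01 with cyclic loess and with array weights, -0.04 with the mean of probe sets, -0.07 with another and -0.03 to 0.03 with an array left out.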
